A study of Homo sapiens with 10 samples.

Results

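The last step of a stiffness series was examined in MCF10A, a line of human mammary epithelial cells that does not form tumours. Messenger RNA of cells on the stiffest gel (60 kPa) was compared with that of cells on the next softer gel (6 kPa), and changes were sought that appear on the stiffest gel alone and hold against each 6 kPa library. The comparison uses 4 of the 10 libraries of the series, 2 from 60 kPa gels and 2 from 6 kPa gels, and covers 12820 genes. Gels of 400 Pa and 1 kPa (2 libraries each) were used to ask whether a change was already present on softer gels. These 8 libraries came from cells in 5 mM glucose, and the last 2 came from 400 Pa gels in 25 mM glucose. All cells were grown for 24 h on polyacrylamide gels coated with fibronectin, in DMEM and F12 with horse serum, insulin, hydrocortisone, cholera toxin, antibiotics and epidermal growth factor. The 6 and 60 kPa gels differ in their acrylamide and bis-acrylamide content, and none of the sources used gives that of the 1 kPa gel. RNA of 4 gel cultures was pooled for each library, all of 1 cell line, and the labels call the pools of a group biological replicates.

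Epithelial cells sense the stiffness of their matrix through integrins, which bind fibronectin and connect it to the actin cytoskeleton. Force on these adhesions changes actomyosin tension, the shape of the nucleus, YAP and SRF dependent transcription and, through EGF receptor and integrin signalling, progress through the cell cycle. The series also deals with mitochondrial stress responses. ATF3, a bZIP transcription factor of the ATF and CREB family, is an immediate early gene and a target of the integrated stress response, in which the factor ATF4 raises genes of amino acid synthesis and transport.

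Among genes that held and have at least 200 bases of exon, ATF3 had the largest change, and promoters of genes with related roles are shown here so that the letters can be set beside the values. The ATF4 recognition sequence (CARE, searched as TGATGNAA on both strands) is in capitals in the promoters of ATF3, of CHAC1, which encodes a glutathione-degrading enzyme, and of ASNS, which encodes asparagine synthetase. The cell cycle genes homology region (CHR, searched as TTTGAA on both strands), found in promoters of many G2 and M phase genes, is in capitals in those of DLGAP5 and HMMR, which encode spindle proteins. Each window runs from 250 bases before to 50 bases after a RefSeq start on GRCh38.p14 and is written 5′ to 3′ on the strand of the gene. The windows are chr1:212565157-212565456 (+ strand, 1 of 2 windows of ATF3), chr15:40953221-40953520 (+, CHAC1), chr7:97872359-97872658 (-, 1 of 2 windows of ASNS), chr14:55191536-55191835 (-, DLGAP5) and chr5:163460382-163460681 (+, HMMR).
ATF3: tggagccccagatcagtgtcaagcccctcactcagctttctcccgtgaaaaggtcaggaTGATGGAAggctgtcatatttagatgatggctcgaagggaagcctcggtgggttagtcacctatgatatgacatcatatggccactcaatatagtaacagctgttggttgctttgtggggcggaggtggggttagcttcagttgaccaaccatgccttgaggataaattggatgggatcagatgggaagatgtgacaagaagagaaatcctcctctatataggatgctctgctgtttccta
CHAC1: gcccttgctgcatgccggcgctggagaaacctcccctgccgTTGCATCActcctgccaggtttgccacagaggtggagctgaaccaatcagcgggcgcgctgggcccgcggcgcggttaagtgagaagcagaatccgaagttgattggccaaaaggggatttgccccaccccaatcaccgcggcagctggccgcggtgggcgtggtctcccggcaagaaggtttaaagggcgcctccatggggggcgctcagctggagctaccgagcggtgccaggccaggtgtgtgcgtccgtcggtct
ASNS: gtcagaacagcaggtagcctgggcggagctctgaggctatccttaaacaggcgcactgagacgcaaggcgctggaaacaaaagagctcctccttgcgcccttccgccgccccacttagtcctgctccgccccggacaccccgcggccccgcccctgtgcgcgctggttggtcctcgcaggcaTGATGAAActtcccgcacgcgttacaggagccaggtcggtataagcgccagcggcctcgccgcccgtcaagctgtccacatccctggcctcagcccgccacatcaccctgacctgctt
DLGAP5: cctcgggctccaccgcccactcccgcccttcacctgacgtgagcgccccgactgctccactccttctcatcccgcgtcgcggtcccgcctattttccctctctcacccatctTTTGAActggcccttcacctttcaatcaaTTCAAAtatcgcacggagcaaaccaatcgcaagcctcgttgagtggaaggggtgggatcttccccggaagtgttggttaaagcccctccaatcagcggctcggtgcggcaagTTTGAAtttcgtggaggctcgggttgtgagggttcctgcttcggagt
HMMR: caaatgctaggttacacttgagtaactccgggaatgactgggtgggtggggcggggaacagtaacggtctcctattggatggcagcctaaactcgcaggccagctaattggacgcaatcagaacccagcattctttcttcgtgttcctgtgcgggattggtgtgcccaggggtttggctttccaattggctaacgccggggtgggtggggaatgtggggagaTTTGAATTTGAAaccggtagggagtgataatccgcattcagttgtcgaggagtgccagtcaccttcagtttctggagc
The CARE match began 191 bases before the start in ATF3, 209 in CHAC1 and 68 in ASNS, where it overlaps a match to the heat shock element. The CHR matches of HMMR began 28 and 22 bases before the start, and those of DLGAP5 began 138 and 109 bases before it and inside the transcript.

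Libraries of 6 and 60 kPa were shallow, and those of 6 kPa stood apart from each other. They held 4.97 and 2.98 M mapped reads at 6 kPa and 7.14 and 5.86 M at 60 kPa (M, 1e6 reads), against 5.75 to 28.61 M in the other 6 libraries. Libraries are called deeper and shallower by this total, since the table gives them no replicate number. Values are FPKM, fragments per kilobase of exon scaled to the mapped reads of the library, and differences are on the log2(FPKM + 1) scale, which understates changes of low genes. The Pearson correlation of the 6 kPa libraries over genes was 0.955, the lowest of the 5 groups (the others were 0.979 to 0.992). Library values moved with the GC content of the transcripts. In the deeper 6 kPa library, transcripts under 35% GC had a median deviation of -0.26 from the mean of 10 libraries, and those of 65% or more had 0.46. The shallower 6 kPa library had 0.09 and -0.18, and the 60 kPa libraries had 0.31 and 0.39 in the first bin and -0.34 and -0.18 in the last. Libraries of 25 mM glucose followed the same slope as 60 kPa, and libraries of the softer gels that of the deeper 6 kPa library. The part of GC content in the results was not tested beyond a fit on values corrected for it, which is given beside the counts.

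**Figure D1:**
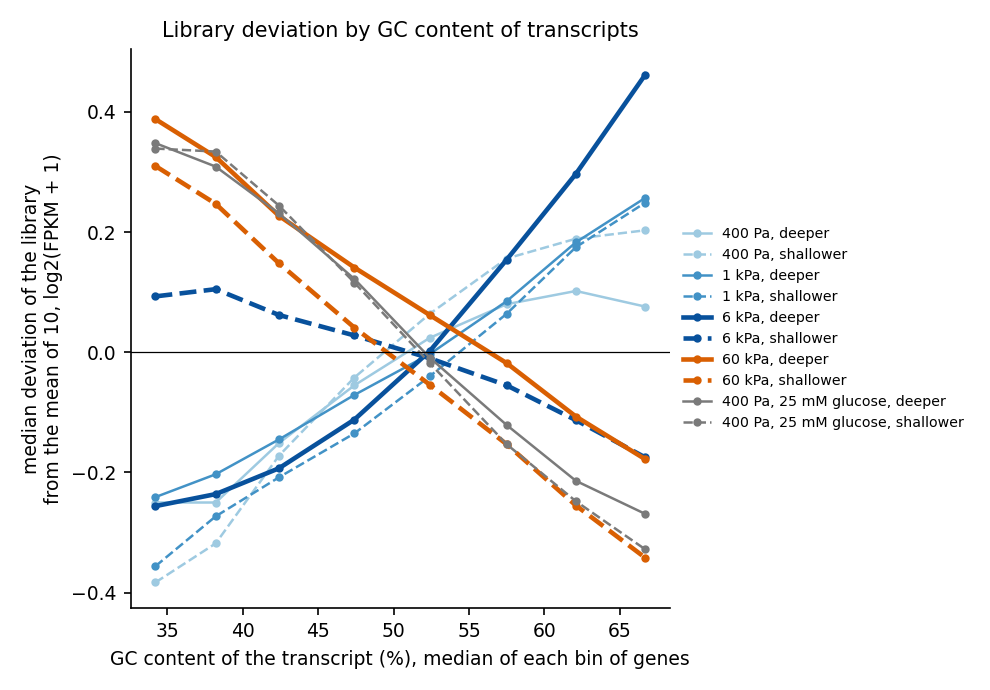
The vertical axis is the median deviation of each library from the mean of 10 libraries, in log2(FPKM + 1), and the horizontal axis is the GC content of the transcript in percent, for 8 bins of genes; each line is 1 library. The deeper 6 kPa library reaches 0.46 in the last bin with the softer gels rising beside it, while both 60 kPa libraries and the shallower 6 kPa library are below 0 there.

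Among markers of epithelial cells, the keratins KRT5 and KRT7 had the highest values throughout. The 12 epithelial genes summed to 4163 and 5266 FPKM at 6 kPa and to 3587 and 4040 FPKM at 60 kPa, with the basal keratin KRT5 at 1225 to 1694 FPKM and the simple keratin KRT19 at 0 in 3 of the 4 libraries. Other epithelial markers were far lower, with EPCAM at 11.7 to 13.2 FPKM, CDH1 at 13.5 to 16.6 and TP63 at 8.37 to 10.4 in these libraries. Leukocyte markers (8 genes, 4 of them, among these PTPRC and CD3E, at 0) summed to 15.0 and 19.2 FPKM at 6 kPa and 8.88 and 13.3 at 60 kPa. Most of this came from CD68 (7.54 to 13.2 FPKM) and CD14 (1.35 to 5.95 FPKM). Fibroblast markers (9 genes, with COL1A2, COL3A1, LUM and PDGFRA at 0) summed to 15.6 to 19.4 FPKM over the 4 libraries. Most of this came from DCN (10.9 to 12.1 FPKM) and FAP (3.42 to 6.62 FPKM). Endothelial markers (7 genes, VWF, CLDN5 and ERG at 0) reached at most 1.09 FPKM and adipocyte markers (4 genes) 0.23.

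Few genes passed the test at this step. In a limma fit over all 10 libraries, 26 of 12820 genes (0.203%) were called at an adjusted p under 0.05, 7 higher and 19 lower at 60 kPa. With values corrected for GC content the fit called 74 of 12650 genes, 12 higher (0.0949%) and 62 lower (0.490%). At an unadjusted p under 0.05 the count was 3185, of which 2126 were higher. Both 60 kPa libraries lay on the same side of both 6 kPa libraries in each of the 26 genes, which is no separate support, since the call used the same values. Among all genes tested, 30.2% had both above and 15.9% both below. Of the 26, 13 (0.101% of genes tested) also kept their call in fits with either 6 kPa library left out, 4 higher and 9 lower, and these are said here to hold. In 11 of the 13 the 60 kPa libraries were outside the range of all 6 libraries of softer gels, and 23.6% of all genes lay above that range and 10.5% below it. The 6 kPa libraries are among these 6, so the choice of the 13 genes fixes this in part. The count of calls rested on the shallower 6 kPa library: 4034 genes were called without it, 2435 of them higher (19.0% of genes tested), and 31 without the deeper one.

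Differences from the 6 kPa libraries were of unequal width. Among 7702 genes averaging at least 5 FPKM, 908 were at least 1.5-fold higher and 796 at least 1.5-fold lower at 60 kPa (mean of both libraries) than in the deeper 6 kPa library. Against the shallower 6 kPa library the same fold was reached by 141 and 126 genes. In all 4 pairs of a 60 kPa with a 6 kPa library, 46 genes with at least 200 bases of exon differed by 1.5-fold in 1 direction, 16 higher and 30 lower, and ATF3 alone differed by 2-fold in all 4.

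**Figure D2:**
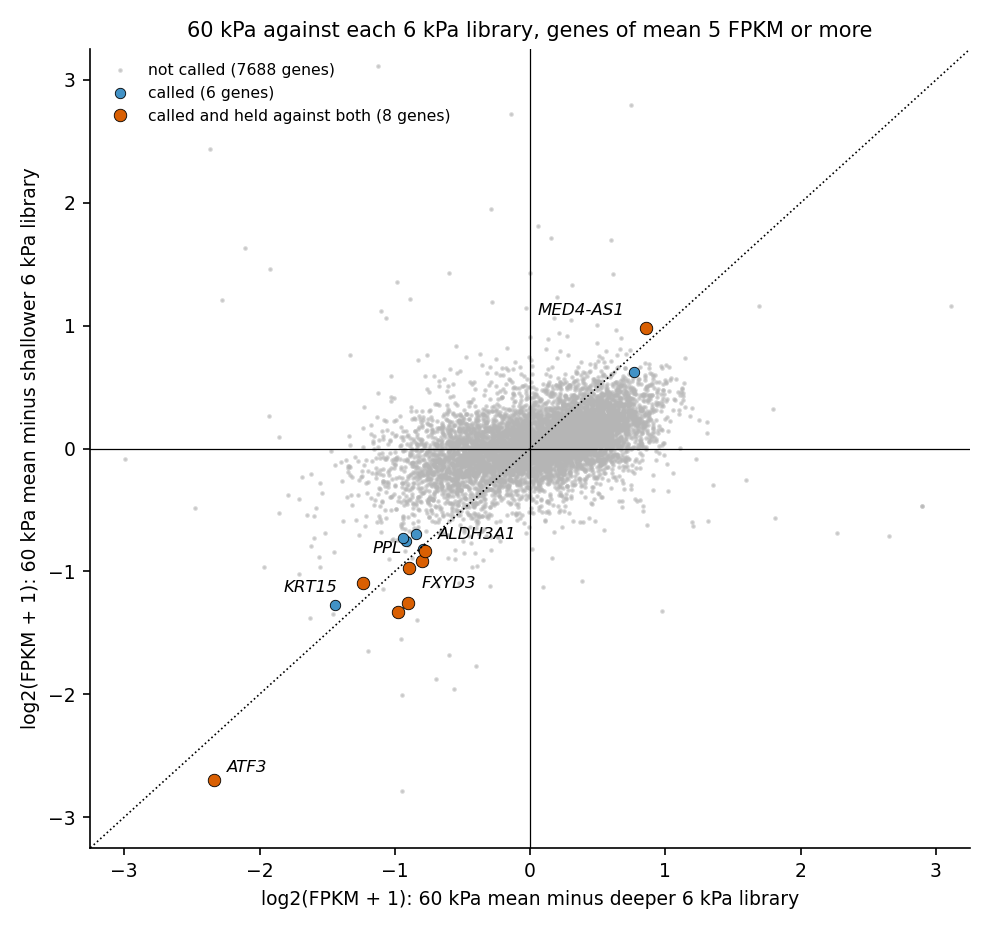
Each point is a gene averaging at least 5 FPKM; the horizontal axis is the 60 kPa mean minus the deeper 6 kPa library and the vertical axis the 60 kPa mean minus the shallower one, both in log2(FPKM + 1), and the dotted line marks equal differences (7 genes are outside the axes). The cloud is wider along the horizontal axis, and ATF3 is at the lower left, near -2.34 and -2.70.

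ATF3 was the single gene that changed on the stiffest gel alone. This needed a change that holds, 60 kPa values beyond all 6 libraries of softer gels, a difference from the preceding change (6 kPa against the mean of 400 Pa and 1 kPa) past the test, and a preceding change that was not called and under 1.5-fold. Without the shallower 6 kPa library, where holding against both 6 kPa libraries could not be required, 622 genes met the rest of the rule, 276 higher and 346 lower. Without the deeper one ATF3 was again the 1 gene. ATF3 spans chr1:212738676-212794119 (hg19, + strand). It was at 9.54 and 9.47 FPKM at 400 Pa, 7.62 and 7.53 at 1 kPa, 6.31 (deeper) and 8.40 (shallower) at 6 kPa, and 0.37 (deeper) and 0.53 (shallower) at 60 kPa. All 6 libraries of softer gels were thus within a narrow band, and both libraries of the stiffest gel were far below it. In reads these were 60 and 48 at 6 kPa and 5 and 6 at 60 kPa, and 95% Poisson intervals, which cover counting error only, were 4.81 to 8.12 and 6.19 to 11.1 FPKM at 6 kPa against 0.12 to 0.85 and 0.20 to 1.16 FPKM at 60 kPa. The mean at 6 kPa was 16.4 times that at 60 kPa, and the log2 difference was -2.52 ± 0.14 (SE, adjusted p = 0.000366, limma). The preceding change was -0.20 (adjusted p = 0.498), and the difference between both changes had an adjusted p of 0.0233; the 2 changes share the 6 kPa libraries. With the GC correction the difference from 6 kPa was -2.64. At 25 mM glucose on 400 Pa, ATF3 was at 15.4 and 14.5 FPKM, the highest of the 10, in libraries that differ from those of 60 kPa in both gel and glucose. In bulk RNA, fewer cells with a transcript and less of it per cell cannot be told apart. The call was kept in 20 of 21 alternative fits and was lost with 4 libraries alone (adjusted p = 0.182), whereas the difference between both changes missed the threshold without either 400 Pa or either 60 kPa library (adjusted p 0.0774 to 0.138).

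Among the other genes that held, 4 protein-coding genes (KRT15, ALDH3A1, FXYD3 and PPL) fell at 60 kPa after a fall at 6 kPa. KRT15, a keratin of basal epithelial cells (chr17:39669997-39675270, - strand), was at 193 to 213 FPKM in the 4 libraries of 400 Pa and 1 kPa, 47.7 and 43.2 at 6 kPa, and 21.6 and 17.9 at 60 kPa. Both steps were downward, and the groups did not overlap. Its last step was -1.17 ± 0.11 (adjusted p = 0.0102, limma) and its preceding one -2.16 (adjusted p = 2.78e-05). ALDH3A1, an aldehyde dehydrogenase that clears reactive aldehydes (chr17:19641298-19651746, - strand), had 207 and 222 FPKM at 400 Pa, 156 and 153 at 1 kPa, 84.0 and 87.6 at 6 kPa and 51.9 and 45.8 at 60 kPa. Every gel had less of it than the softer gel before it. The last step was -0.80 ± 0.09 (adjusted p = 0.0234), and the preceding one was -1.08 (adjusted p = 0.00159).

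FXYD3, a regulator of the sodium and potassium pump (chr19:35606732-35615228, + strand), was at 31.5 and 33.2 FPKM at 6 kPa and 17.8 and 15.3 at 60 kPa, against 56.5 to 74.5 on the softer gels. The last step was -0.93 ± 0.11 (adjusted p = 0.0234), the same size as the preceding one of -0.93. PPL, which encodes periplakin, a plakin of desmosomes and the cornified envelope (chr16:4932508-4987136, - strand), was at 13.7 to 14.8 FPKM on the softer gels, 8.56 and 9.39 at 6 kPa and 4.62 and 4.39 at 60 kPa. Its last step was -0.86 ± 0.10 (adjusted p = 0.0234) and its preceding one -0.63 (adjusted p = 0.0299). In all 4 genes the preceding fall was called, so they do not meet the rule for the stiffest gel alone. The difference of the 2 steps was not called in any of them, which does not show that the steps were equal. KRT15 was called in 20 of 21 alternatives, ALDH3A1 in 17, and FXYD3 and PPL in 10 each. With the GC correction PPL missed the threshold (-0.66, adjusted p = 0.0645), while KRT15 (-1.06), ALDH3A1 (-0.63) and FXYD3 (-0.97) passed it.

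**Figure D3:**
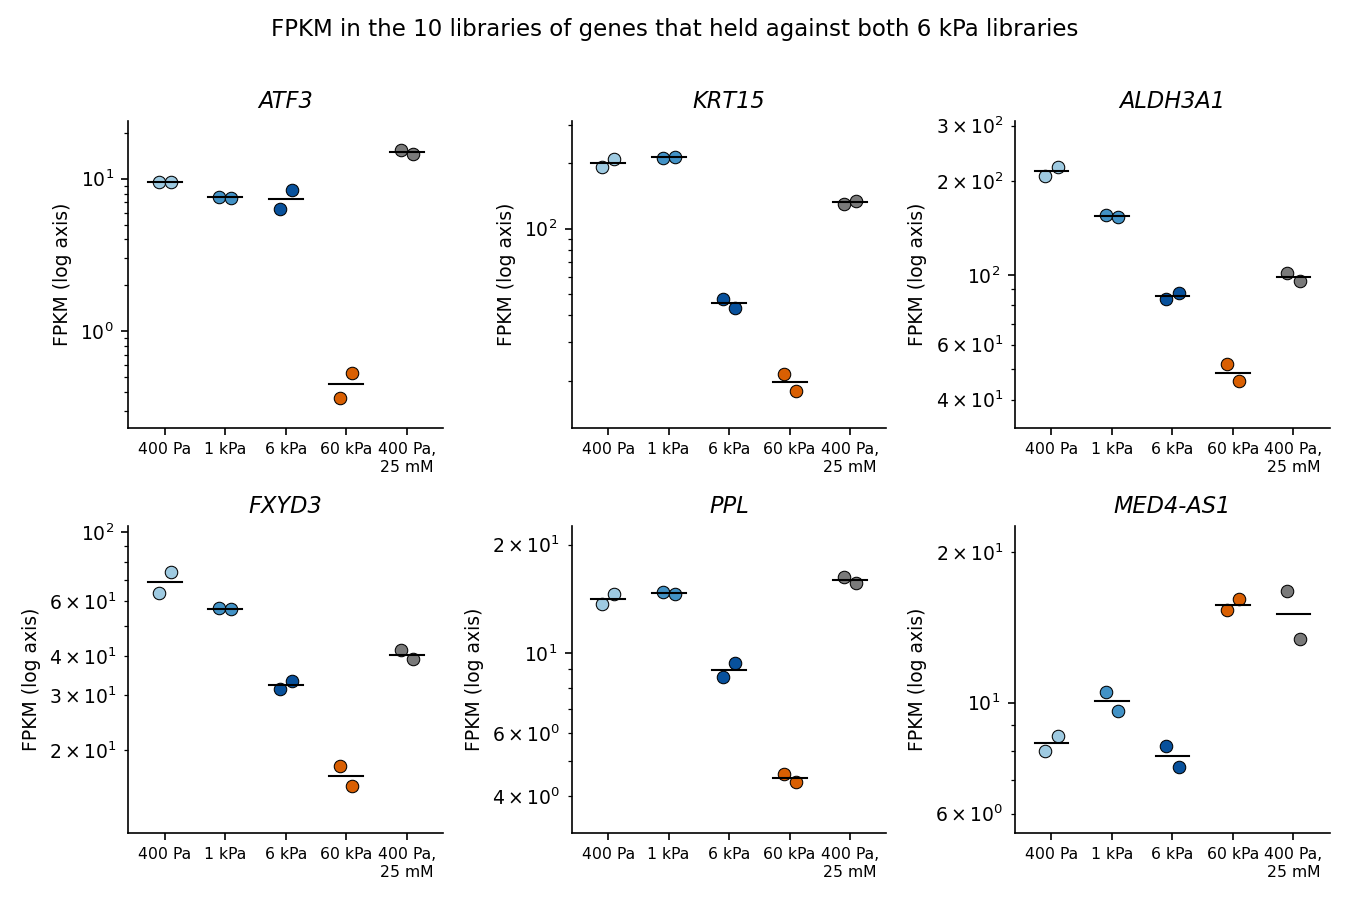
FPKM on a log axis in each library (points, the deeper library of a group on the left) with the group mean (line), for 6 genes that held against both 6 kPa libraries; axes differ between panels. ATF3 is level from 400 Pa to 6 kPa and near 0.45 at 60 kPa, KRT15, ALDH3A1, FXYD3 and PPL are lower at 6 kPa than on softer gels and lower again at 60 kPa, and MED4-AS1 is highest at 60 kPa among the gels at 5 mM glucose.

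Of the 4 rises that held, none was a protein-coding gene. MED4-AS1 (chr13:48651273-48654129, + strand) was at 7.44 to 10.5 FPKM in the 6 libraries of softer gels and at 15.3 and 16.1 at 60 kPa. Its step was 0.92 ± 0.13 (adjusted p = 0.0379), resting on 22 and 12 reads at 6 kPa and 59 and 51 at 60 kPa, and it was at 16.7 and 13.4 FPKM in the 25 mM libraries. It was called in 10 of 21 alternatives and missed the threshold with the GC correction (0.72, adjusted p = 0.0626) and with voom (adjusted p = 0.0967), which weights recovered reads. DIAPH3-AS1 (chr13:60587437-60618490, + strand) was at 2.40 and 2.00 FPKM at 6 kPa and 9.17 and 8.12 at 60 kPa, with 4 and 2 reads against 22 and 16, and a step of 1.59 ± 0.19 (adjusted p = 0.0234). It lay at 2.94 and 2.35 FPKM at 25 mM glucose, below both 60 kPa libraries. Both are antisense genes in a count made with no strand option, so reads of the partner gene cannot be told apart from theirs. MIR3153 and MIR3128 were called from 1 or 2 reads per 60 kPa library and none in the other 8.

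The remaining falls that held were also short RNAs. MIR423 and MIR3184 overlap each other and were called from 3 and 1 and from 1 and 1 reads at 6 kPa and none at 60 kPa, after a rise at 6 kPa. MIR3648-1 and MIR3648-2, near-identical copies listed at 1 position in the table, were at 45.0 and 58.1 FPKM at 6 kPa and at 21.1 to 23.8 FPKM at 60 kPa. Their differences of -1.15 and -1.08 became -0.28 and -0.21 with the GC correction, where neither was called, and 0.22 and 0.30 when weights from read counts were added to it.

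A further 13 genes were called but lost the call without the deeper 6 kPa library, so they did not hold against both. Of these, 3 were CHAC1 and PPP1R15A, known as stress response genes, and FOSB, an immediate early gene. CHAC1 was at 5.29 and 3.30 FPKM at 6 kPa and 0.83 and 0.34 at 60 kPa (40 and 15 against 9 and 3 reads), and at 2.89 to 6.28 on the softer gels. Its difference was -1.74 ± 0.25 (adjusted p = 0.041, and 0.0759 without the deeper 6 kPa library). PPP1R15A, which encodes the GADD34 subunit of the phosphatase that ends the integrated stress response, was at 9.40 and 9.59 FPKM at 6 kPa and 4.65 and 5.38 at 60 kPa, with a difference of -0.80 ± 0.12 (adjusted p = 0.041). PPP1R15A was called in 6 of 21 alternatives and missed the threshold with the GC correction (-0.62, adjusted p = 0.098). FOSB, an AP-1 subunit, was at 3.05 and 2.85 FPKM at 6 kPa and 0.67 and 0.36 at 60 kPa, a difference of -1.39 ± 0.17 (adjusted p = 0.0234). The 60 kPa values of all 3 genes lay below those of the 6 softer libraries.

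Other protein-coding genes were also called lower. SPRR1B, a cornified envelope precursor, was at 6.88 and 6.00 FPKM at 6 kPa and 2.51 and 1.39 at 60 kPa, and had 13.3 to 20.0 FPKM on the softer gels. Its difference was -1.36 ± 0.20 (adjusted p = 0.041). GRHL3, a grainyhead transcription factor of barrier formation, was at 2.48 and 3.00 against 0.68 and 0.95 FPKM (-1.04, adjusted p = 0.041). NMB, which encodes the peptide neuromedin B, was at 8.49 and 8.55 against 2.33 and 2.84 FPKM (-1.41, adjusted p = 0.0234, and -1.08 with 0.076 after the GC correction). ECSIT, an assembly factor of respiratory complex I, was at 20.9 and 18.6 against 11.8 and 9.60 FPKM (-0.83 ± 0.12, adjusted p = 0.041). It was called in 6 of 21 alternatives and missed the threshold with the GC correction (-0.54, adjusted p = 0.0746). ACY1, an aminoacylase, had 32.5 and 29.3 against 18.6 and 16.8 FPKM (-0.77, adjusted p = 0.0337), and the read-through gene ABHD14A-ACY1, which shares its exons, was also called (-0.84). ECSIT and ACY1 were level before the last step, with 17.9 to 20.9 FPKM and 29.3 to 34.0 FPKM in the 6 libraries of softer gels.

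CEBPZ, a CCAAT-binding protein that also takes part in ribosome assembly, was the protein-coding gene called higher. It was at 15.2 and 17.0 FPKM at 6 kPa and 27.5 and 25.9 at 60 kPa, a difference of 0.70 ± 0.10 (adjusted p = 0.041) that was 0.38 (adjusted p = 0.076) with the GC correction. Its 25 mM values of 27.3 and 28.4 FPKM overlapped those of 60 kPa. LOC105370489, LOC101929613 and SNORA40, all listed at 0 in both libraries of one of the groups, complete the 13. Short RNAs that did not pass the test had larger differences upward. Among those of at least 5 FPKM on average with an unadjusted p under 0.05, SNORD44, MIR3620, MIR1268A, MIR1825, SNORD104, SNORD86 and SNORD76 had at most 3 reads in each 6 kPa library, with differences of 2.14 to 3.50, which depend on the pseudocount, and adjusted p-values of 0.0657 to 0.199. ALG13, a subunit of a glycosyltransferase of the endoplasmic reticulum, was at 5.77 and 2.88 against 9.22 and 9.53 FPKM (1.02, adjusted p = 0.09).

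Most immediate early and AP-1 genes had lower values at 60 kPa than at 6 kPa. Of 20 measured genes of this list 2 were called (ATF3 and FOSB), both lower. In 14 of the 20 (70%) both 60 kPa libraries lay below both 6 kPa libraries and in none above. In 10 they lay below all 6 softer libraries. Among all genes tested, 15.9% lay below both 6 kPa libraries, 30.2% above them and 10.5% below all 6. The median difference was -0.28, against 0.07 over all genes tested, and -0.24 with the GC correction. The corrected fit called 5 members lower (0.490% of genes tested were). Voom called 9 lower (5.23% of genes tested), and voom with the GC correction called 4 lower (72 of 12650 genes). The list has a median GC content of 55.2%, against 49.3% over genes tested. The median was -0.21 without the deeper and -0.46 without the shallower 6 kPa library. Before the last step the median of the list was 0.02. JUNB was at 46.2 and 31.6 FPKM at 6 kPa and 22.0 and 19.2 at 60 kPa (-0.86, adjusted p = 0.0657, and 0.0219 with the GC correction). JUN was at 21.7 and 17.9 against 12.5 and 9.61 FPKM (-0.79, adjusted p = 0.0602, and 0.0214 corrected). Both subunits were below all 6 softer libraries. JUND had a difference of -0.73, FOS of -0.62, EGR1 of -0.49 and FOSL2 of -0.48, none of them called. MYC (-0.20, adjusted p = 0.225) and the phosphatase gene DUSP1 (-0.32, adjusted p = 0.116) differed less.

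Targets of ATF4 showed 1 call among 18 measured genes, CHAC1. Voom called 9 lower, where it called 5.23% of genes tested lower. With the GC correction added, voom called 3 lower, where it called 72 of 12650 genes lower. The list has a median GC content of 57.3%, against 49.3% over genes tested. Of the 18, 8 (44.4%) lay below both 6 kPa libraries, all 8 of these also below the 4 libraries of softer gels, and none lay above. Among all genes tested, 15.9% lay below both 6 kPa libraries, 30.2% above them and 10.5% below all 6 softer libraries. The median of the list was -0.28, and -0.18 with the GC correction, after -0.04 at the preceding step. It was -0.18 without the deeper and -0.45 without the shallower 6 kPa library. TRIB3, a pseudokinase induced by ATF4, was at 54.1 and 37.0 FPKM at 6 kPa and 28.6 and 21.1 at 60 kPa (-0.84, adjusted p = 0.0726). ASNS was at 25.7 and 33.3 against 19.9 and 16.2 FPKM (-0.67, adjusted p = 0.0657) and was called with the GC correction (-0.89, adjusted p = 0.00633). PHGDH, the first enzyme of serine synthesis, was at 31.0 and 30.7 against 21.3 and 18.9 FPKM (-0.60, adjusted p = 0.0597). SESN2 had -0.65, SLC3A2 -0.40 and DDIT4 -0.32, none called. The members SLC7A11 (0.26), MTHFD2 (0.15) and ALDH1L2 (0.10) differed upward, and ATF5 (-0.13) and PSPH (-0.06) differed little, none called. ATF4 itself was at 142 and 136 against 126 and 116 FPKM (-0.21, adjusted p = 0.192). ASNS was at 40.8 and 41.1 FPKM at 25 mM glucose and TRIB3 at 33.1 and 31.1. CARE was found in 3 of the 14 members with a promoter (21.4%: ASNS, CHAC1 and SLC3A2), and in 2.6% of genes tested, as printed above for ATF3, CHAC1 and ASNS. The share was not particular to this list, since 2 of 10 promoters of cornification genes (20.0%: SPRR1B and S100P) also held CARE. NUPR1, a stress-induced chromatin protein chosen after its values were seen, was at 48.2 and 35.8 against 21.7 and 22.2 FPKM (-0.89, adjusted p = 0.06, and 0.0464 corrected).

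**Figure D4:**
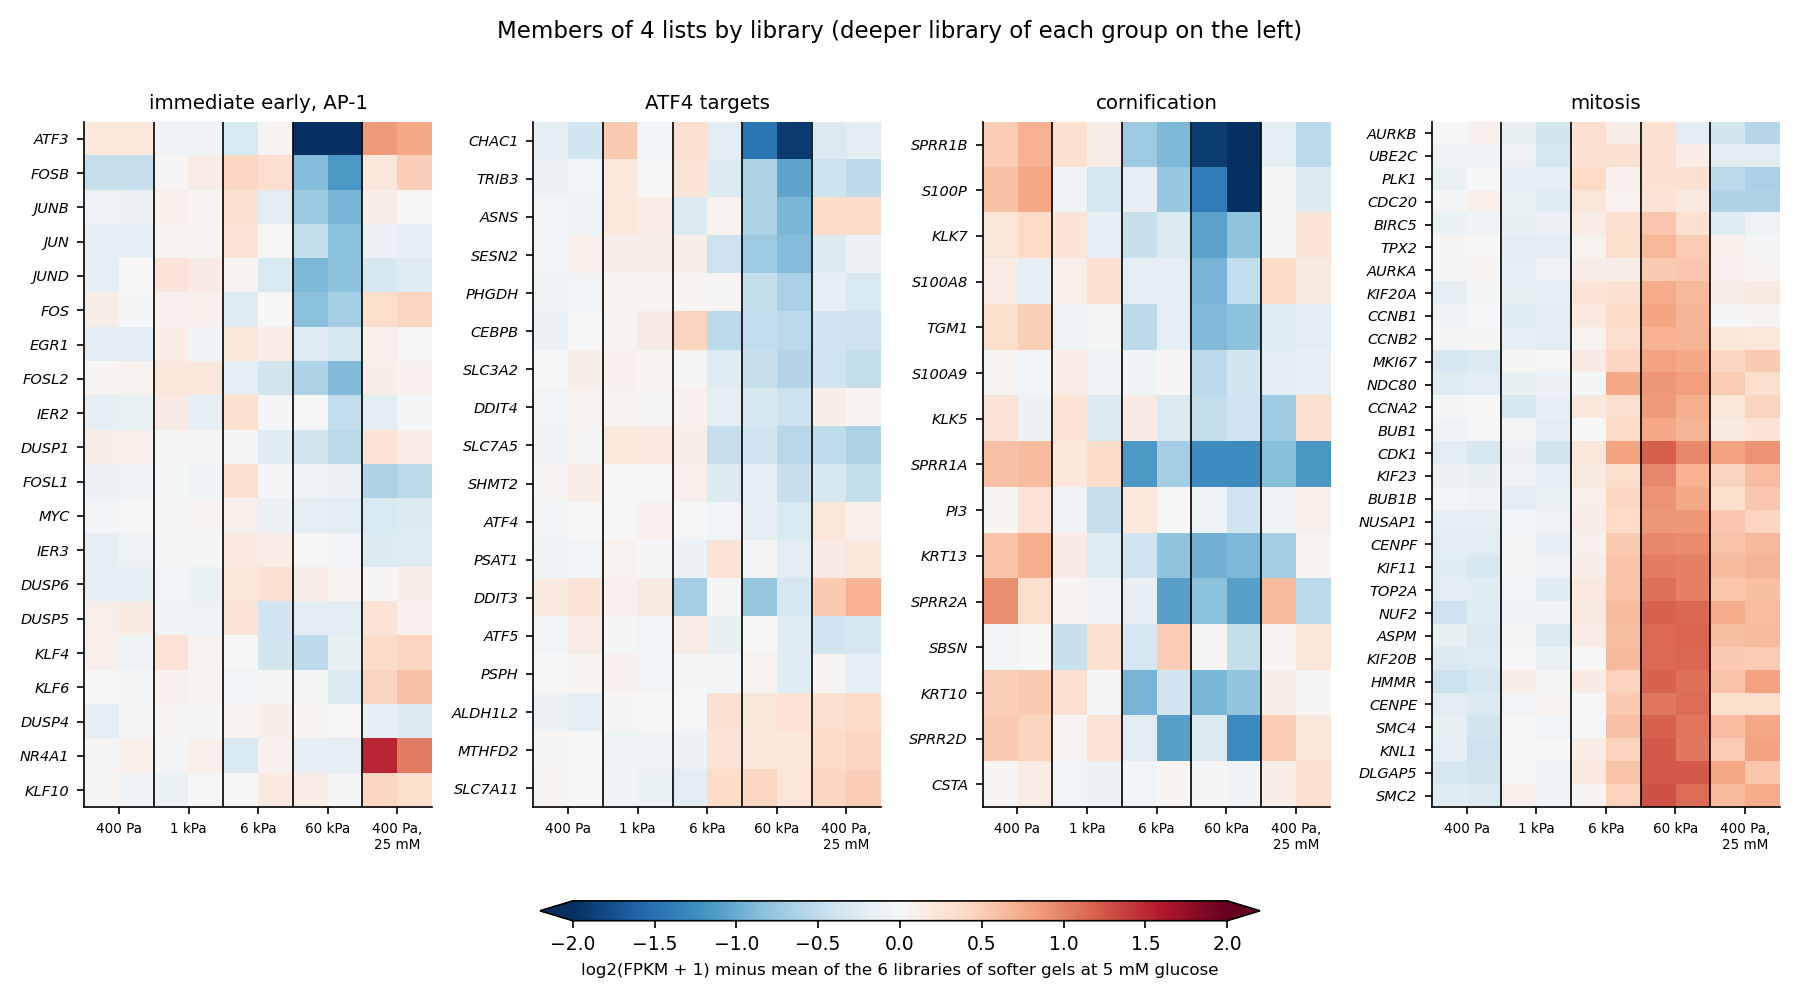
Heat maps of log2(FPKM + 1) minus the mean of the 6 libraries of softer gels at 5 mM glucose, for each measured member (rows) and library (columns, the deeper of a group on the left); colours end at -2 and 2. The 60 kPa columns are blue for ATF3, FOSB, CHAC1 and SPRR1B and red for most mitosis genes, where the shallower 6 kPa library is also pale red.

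Most cornification genes had lower values at 60 kPa than at 6 kPa, and lower values at 6 kPa than on softer gels. Of 15 measured, SPRR1B was called. In 10 (66.7%) both 60 kPa libraries lay below both 6 kPa libraries and in none above, against 15.9% and 30.2% of genes tested. The median of -0.35 (-0.32 corrected) followed one of -0.55 at the preceding step, where 3 members were called lower (0.413% of all genes were). S100P, a calcium-binding protein, was at 42.2 and 27.8 FPKM at 6 kPa and 17.4 and 10.8 at 60 kPa, against 37.1 to 82.1 on softer gels (-1.26, adjusted p = 0.0657, and 0.0464 corrected). The transglutaminase gene TGM1 had -0.50, the protease gene KLK7 -0.58, and S100A8 -0.53, none called. AP-1 sites (TGANTCA on both strands) were found in promoters of 4 of 10 members (40%: SPRR1A, SPRR1B, SPRR2A and SBSN) and of 7.2% of genes tested.

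Basal and myoepithelial markers included KRT15 as their 1 call among 13. In 8 (61.5%) both 60 kPa libraries lay below both 6 kPa libraries and in 2 (15.4%) above, against 15.9% and 30.2% of genes tested. The median of the list was -0.19. KRT14 was at 300.1 and 229.9 against 195 and 175 FPKM (-0.50, adjusted p = 0.0779), and KRT17 was at 728 and 529 against 472 and 401 FPKM (-0.51, adjusted p = 0.0948). KRT5 had the smaller difference of -0.27 (adjusted p = 0.132). KRT16, a stress keratin, was at 29.5 and 20.4 against 16.6 and 13.6 FPKM (-0.67, adjusted p = 0.0772, and 0.048 corrected), after a called fall of -1.44 at the preceding step. Hemidesmosome genes ITGB4 (-0.62) and LAMB3 (-0.58) were not called, and both were with the GC correction (adjusted p = 0.0389 and 0.0356).

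Mitosis genes had higher values at 60 kPa in most members, and none of the 30 passed the test. In 25 (83.3%) both 60 kPa libraries lay above both 6 kPa libraries and above all 6 softer libraries, in none below. Among all genes tested, 30.2% lay above both 6 kPa libraries and 23.6% above all 6. The median difference of the list was 0.56, and 0.32 with the GC correction, which called 3 higher (0.0949% of genes tested were). The count of calls depended on the 6 kPa libraries, with 25 called higher without the shallower one and none without the deeper one, where the medians were 0.73 and 0.42. Voom called 24 members higher, where it called 5.63% of genes tested higher, and voom with the GC correction called 8 (0.332%). The list has a median GC content of 41.7%, against 49.3% over genes tested, and its median at the preceding step was 0.42. SMC2, a condensin subunit, was at 10.0 and 13.7 FPKM at 6 kPa and 24.7 and 22.2 at 60 kPa, against 7.70 to 10.4 on softer gels (0.94, adjusted p = 0.0559, and 0.0242 corrected). DLGAP5 was at 18.5 and 24.1 against 38.9 and 38.6 FPKM (0.84, adjusted p = 0.0559, and 0.048 corrected). HMMR was at 23.1 and 28.7 against 47.4 and 45.0 FPKM (0.82, adjusted p = 0.0589, and 0.0746 corrected). Among the gels at 5 mM glucose, the levels of these 3 genes were lowest at 400 Pa and highest at 60 kPa. On 400 Pa at 25 mM glucose, SMC2 was at 15.5 and 16.7 FPKM, DLGAP5 at 27.9 and 23.9 and HMMR at 30.8 and 36.5. These were above the 400 Pa values at 5 mM glucose and below those of 60 kPa.

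Other members had smaller differences. The kinetochore gene KNL1 and the condensin gene SMC4 had 0.84 each, topoisomerase gene TOP2A 0.67, CENPF 0.66, CDK1 0.56, the proliferation marker MKI67 0.49 and cyclin gene CCNB1 0.45, with adjusted p-values of 0.0657 to 0.118. ANLN, a cytokinesis gene, had 0.65. CHR was found in 19 of 25 members with a promoter (76.0%) and in 13.8% of genes tested, and the CCAAT box (CCAAT on both strands) also in 19 (76.0%, and 43.6% of genes tested). CCNB1, CCNA2, AURKB, BUB1, KIF20A and CENPE had no CHR match in these windows. In the list of DNA replication and S phase, 14 of 25 (56%) lay above both 6 kPa libraries and 2 (8%) below, against 30.2% and 15.9% of genes tested. None of the list was called, and its median was 0.19 (0.09 corrected).

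Most chromatin genes and the lamin gene LMNB1 had higher values at 60 kPa, with no call. DEK, a chromatin architecture protein, was at 44.7 and 70.9 FPKM at 6 kPa and 104 and 92.1 at 60 kPa (0.79, adjusted p = 0.0736, and 0.0816 corrected). The 6 kPa libraries were themselves far apart. Of 19 chromatin and HMG genes 14 (73.7%) lay above both 6 kPa libraries and 1 (5.3%) below, against 30.2% and 15.9% of genes tested. The list had no call and a median of 0.33 (0.15 corrected). In the nuclear envelope list of 14 genes, 6 (42.9%) lay above both 6 kPa libraries and 2 (14.3%) below. None was called, and the median was 0.10 (0.025 corrected), against 0.07 over all genes tested. LMNB1, a B-type lamin of the nuclear lamina, was at 44.6 and 53.4 against 78.8 and 77.3 FPKM (0.67, adjusted p = 0.0559, and 0.0183 corrected), and TMPO, which encodes a lamina-associated protein, had 0.63 (0.048 corrected). LMNA, the A-type lamin, was at 304 and 209 against 205 and 184 FPKM (-0.37, adjusted p = 0.18). On the softer gels LMNB1 had 38.3 to 46.8 FPKM, below both 60 kPa libraries.

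CDKN1C, which encodes the cyclin-dependent kinase inhibitor p57, was at 10.8 and 6.31 FPKM at 6 kPa and 3.28 and 2.05 at 60 kPa, against 11.3 to 13.4 on softer gels. It was not called (-1.36, adjusted p = 0.06) and was called with the GC correction (adjusted p = 0.0183). NEAT1, a nuclear RNA of paraspeckles, was at 22.1 and 30.4 against 14.0 and 12.9 FPKM (-0.90, adjusted p = 0.0657, and 0.0438 corrected).

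Chaperone and oxidative stress genes split. Of 20 heat shock and chaperone genes 12 (60%) lay above both 6 kPa libraries and 2 (10%) below, against 30.2% and 15.9% of genes tested. None of the list was called, and its median was 0.31 (0.14 corrected). HSP90AA1 was at 286 and 386 against 516 and 450.3 FPKM (0.54, adjusted p = 0.0812), HSPH1 had 0.52, the mitochondrial co-chaperonin gene HSPE1 0.62, and the small heat shock gene HSPB1 -0.71 (adjusted p = 0.104). HSPA1A, the inducible HSP70, was at 16.1 and 15.6 against 21.9 and 18.4 FPKM (0.32, adjusted p = 0.155). HSF1, which encodes the heat shock factor, was at 59.1 and 45.3 against 35.9 and 38.5 FPKM (-0.47, adjusted p = 0.0927), and -0.14 corrected. The heat shock element (GAANNTTC) was in 10 of 18 promoters of the list (55.6%) and in 6.4% of genes tested.

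Among 21 NRF2 targets none was called. Of these, 10 (47.6%) lay below both 6 kPa libraries and 4 (19%) above, against 15.9% and 30.2% of genes tested. The median of the list was -0.12 (-0.15 corrected). On the corrected scale 13 lay below and none above, where 20.2% of all genes lay below and 20.6% above. FTH1, the ferritin heavy chain, was at 1184 and 1078 against 854 and 736 FPKM (-0.51, adjusted p = 0.0636, and 0.0183 corrected), and FTL, the light chain, had -0.36. AKR1C1, an aldo-keto reductase, was at 49.2 and 62.7 against 42.9 and 39.4 FPKM (-0.43, adjusted p = 0.105, and 0.00925 corrected). Each of the 3 was highest at 400 Pa.

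Genes read as responses to stiffness showed no call at this step. Among 21 YAP and TAZ-TEAD targets 6 lay above both 6 kPa libraries and 5 below, with a median of 0.02 (0.12 corrected). These are 28.6% and 23.8% of the list, against 30.2% and 15.9% of genes tested. CYR61, a matricellular YAP target, was at 19.5 and 24.8 against 14.3 and 14.0 FPKM (-0.60, adjusted p = 0.0657, and 0.0313 corrected), and CTGF was at 12.6 and 12.6 against 10.1 and 8.62 FPKM (-0.40, adjusted p = 0.111). ANKRD1 was under the filter on low values. SRF and MRTF targets (19 genes) had 3 above and 3 below (15.8% each) and a median of -0.06, which turned to 0.10 with the GC correction. Integrin and focal adhesion genes (24) had 11 (45.8%) above and 5 (20.8%) below, with a median of 0.10 on both scales. ITGB1, the main fibronectin receptor chain, was at 90.4 and 118 against 145 and 137 FPKM (0.45, adjusted p = 0.0928), and 0.11 corrected. ITGA6 had 0.37.

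Structural genes in the centre of the series were close to level, while respiratory and ribosomal genes lay below 6 kPa more often than above it. FN1 was at 26.1 and 26.7 against 25.1 and 24.7 FPKM (-0.08, adjusted p = 0.583), VIM at 496 and 481 against 505 and 458 FPKM (-0.02, adjusted p = 0.889) and ACTB at 2971 and 2389 against 2684 and 2435 FPKM (-0.06, adjusted p = 0.742). The signs of VIM and ACTB turned with the GC correction. TXNIP, an arrestin that limits glucose uptake and is induced by glucose, was at 21.7 and 26.8 against 21.9 and 20.0 FPKM (-0.20, adjusted p = 0.296), after a called fall of -0.998 at the preceding step, and at 121 and 124 FPKM at 25 mM glucose. GAPDH had -0.20 (adjusted p = 0.174) and the mitochondrial protease gene YME1L1 0.25 (adjusted p = 0.213), which was -0.04 with the GC correction. Of 34 genes of respiratory complexes III to V, 12 (35.3%) lay below both 6 kPa libraries and none above. Their median was -0.08 (-0.19 corrected, 21 below and none above). Among all genes tested 15.9% lay below and 30.2% above, and 20.2% and 20.6% on the corrected scale. Of 34 cytosolic ribosomal protein genes 13 (38.2%) lay below and 2 (5.9%) above, with a median of -0.08 (-0.12 corrected, 19 below and 1 above). No gene of either list was called in the limma fit on FPKM. With the GC correction 1 ribosomal gene was called lower (0.490% of genes tested were). Voom called 5 respiratory and 12 ribosomal genes lower (5.23% of genes tested were). With the GC correction added, voom called 2 respiratory and 6 ribosomal genes lower (72 of 12650 genes were).

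**Figure D5:**
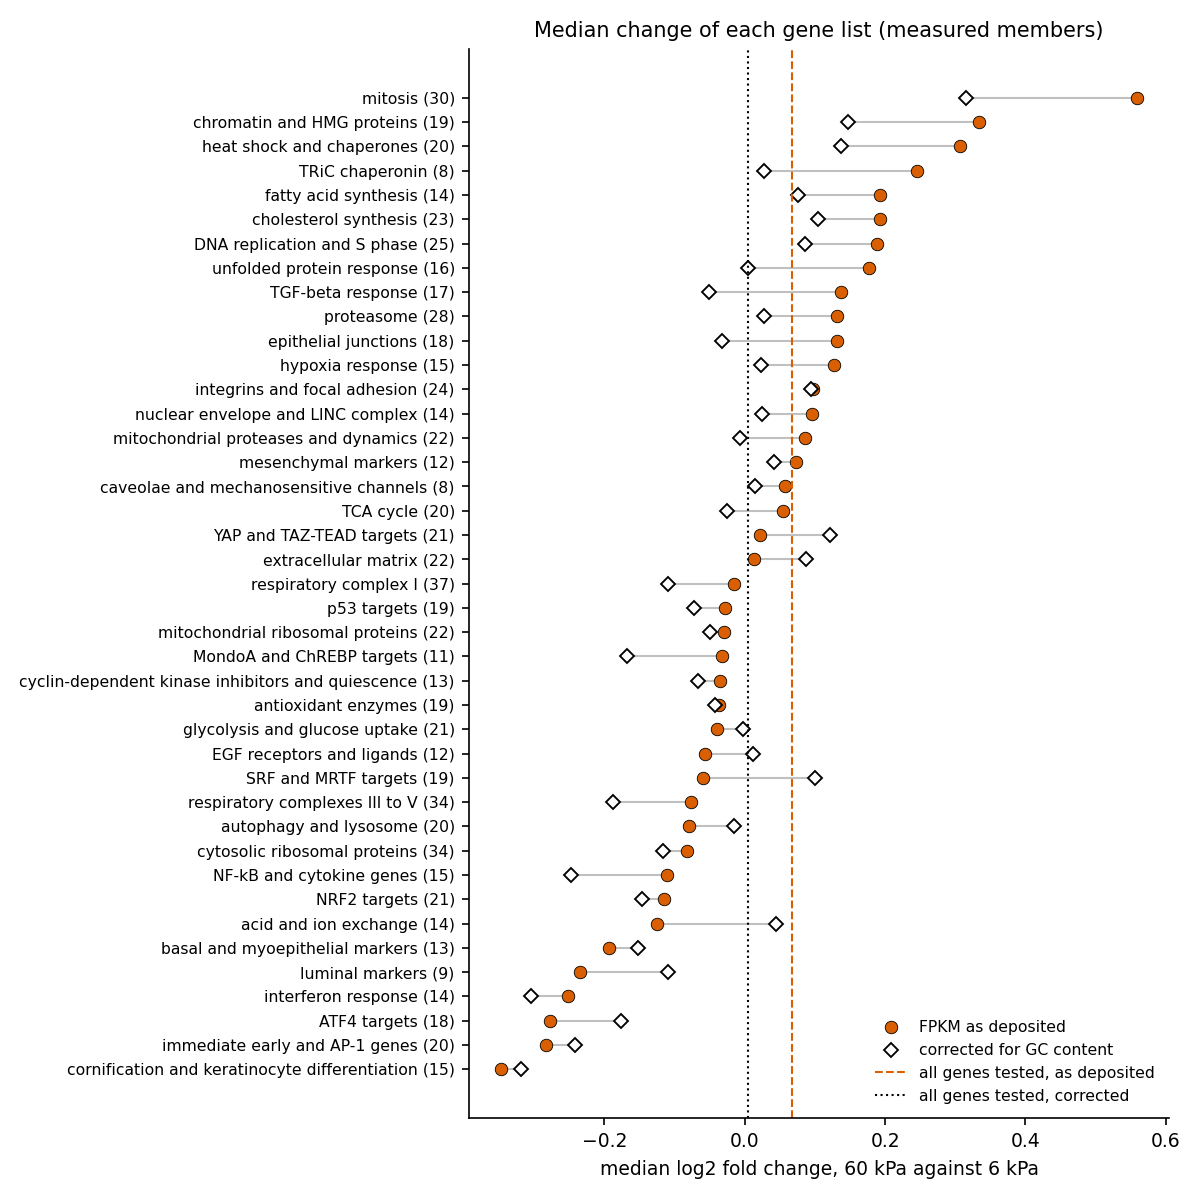
Median log2 difference of 60 kPa from 6 kPa over the measured members of the gene lists shown (number in brackets), from deposited FPKM (filled) and after the GC correction (open), with the medians of all genes tested as lines at 0.07 and 0.00. Mitosis has the highest median (0.56, and 0.32 corrected), and cornification (-0.35), immediate early (-0.28) and ATF4 target genes (-0.28) are among the lowest; most lists above the line move toward 0 with the correction.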

How the data were processed

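Poly(A) libraries were prepared from TRIzol extracts with a KAPA mRNA HyperPrep kit, per the labels. The submitters' processing notes name STAR, HOMER and the build hg19, without versions. The authors' deposited FPKM values (27942 genes) come from HOMER's analyzeRepeats.pl with its -rpkm option, on exons of 1 transcript per gene and with no strand option, per the file headers. FPKM scaling removes depth and length but not a trend with GC content. Columns carry a letter under a group heading and no replicate number, and libraries are therefore told apart by depth. For the deeper 1 kPa library the header names an input directory without a gel, and the heading gave its group.

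Differences were tested with limma 3.58.1 in R 4.3.3 on log2(FPKM + 1) for genes averaging at least 0.5 FPKM, with all 10 libraries in 5 groups sharing 1 estimate of the spread (eBayes with trend). P-values are two-sided, adjusted over all genes tested (Benjamini-Hochberg) and called under 0.05. The p-values and SEs rest on the spread between pools of gels taken over all 5 groups, and not on that of the compared pools alone. The groups spread unequally. The SD of the difference between the 2 libraries of a group was 0.537 at 6 kPa, 0.351 at 60 kPa and 0.227 at 400 Pa. The GC correction subtracts from each library a loess curve (span 0.3) of its deviation on the GC content of GENCODE v29 transcripts, known for 98.7% of genes tested. Whole reads were recovered from FPKM and exon length: at least 99.98% of values lay within 0.12 of a whole number in every library, and the limma voom alternative used these reads and called 1393 genes. The scripts were tested on simulated data. Alternatives were the pseudocount, filters, centring, 4 or 8 libraries in the fit, voom, the GC correction and each library left out, and 2 fits (voom with the GC correction, and exon lengths of at least 200 bases) were chosen after seeing the data.

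The comparison, the 48 gene lists and the rule for naming genes were chosen with earlier results of these data known. The rule names, with a mean of at least 5 FPKM, the 10 largest rises and falls that held, filled with other called genes and then with genes at an unadjusted p under 0.05, all genes changed on the stiffest gel alone, called members of the lists, and genes given by name. Some genes and lists are not reported here. Other list members in the text, and the CRE motif, were chosen after their values were seen. All list symbols matched the table. Promoters are those of RefSeq; 9613 of 12820 genes tested matched, KRT15, ALDH3A1 and PPL not among them.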

Additional observations from a re-analysis of the deposited data

How the results depend on the processing

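The 26 calls became 28 with a pseudocount of 0.1 FPKM, 18 with 5 FPKM, 8 without a filter on low values, 202 with a mean of at least 5 FPKM, 106 after median centring, 0 with the 4 libraries alone (1142 at an unadjusted p under 0.05; no voom fit was run on these 4), 16 with 8 libraries, 1393 with voom, 74 with the GC correction, 114 with voom and the GC correction and 60 with exon lengths of at least 200 bases. Leaving out 1 library gave 2 to 4034 calls: 4034 without the shallower 6 kPa library, 31 without the deeper, 2 without either 400 Pa library, 7 without either 60 kPa library, and 16 or 17 otherwise. The 13 genes that held became 22 (0.1 FPKM), 11 (5 FPKM), 8 (no filter), 40 (mean of 5), 63 (centring), 0 (4 libraries), 9 (8 libraries), 88 (voom), 39 (GC), 37 (voom and GC) and 44 (200 bases), and 1 to 11 with a library of another group left out. The single gene changed on the stiffest gel alone, ATF3, was lost (0 genes) with a pseudocount of 5 FPKM and without a filter, and voom gave 2, adding TIMP1 (-0.55); leaving out 1 library gave 0 to 622, with 622 without the shallower 6 kPa library, where the requirement to hold against both falls away, and 0 or 1 otherwise. Voom also called 9 chaperone genes higher (5.63% of genes tested were) and 12 cytosolic ribosomal protein genes lower (5.23% were), where the limma fit on FPKM called none. With the GC correction added, voom called 3 chaperone genes higher and 6 ribosomal genes lower, where it called 42 and 72 of 12650 genes. The causes were not tested.

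Of the 26 genes, all 26 were also called in the same direction after centring and without the shallower 6 kPa library, 13 without the deeper, 18 with voom and 15 of 25 with the GC correction. Signs turned in voom with the GC correction for MIR3648-1 (0.22), MIR3648-2 (0.30), GAPDH (0.029), ACTB (0.020), VIM (0.037) and YME1L1 (-0.085), and with the GC correction alone for ACTB (0.015), VIM (0.022) and YME1L1 (-0.037). With 1 library left out, ACTB ranged from -0.22 to 0.098 and VIM from -0.092 to 0.049. No paired analysis was possible because the table columns carry no replicate number. Depth limits low genes, since ATF3 at 60 kPa rests on 5 and 6 reads.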

Other observations

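Genes outside the lists also differed by 1.5-fold or more in all 4 pairs of a 60 kPa with a 6 kPa library, without passing the adjusted test, and were chosen after their values were seen. Upward, 10 of the 11 such genes with at least 200 bases of exon lay above all 6 libraries of softer gels. MPHOSPH9, a centriole protein, was at 4.40 and 3.94 FPKM at 6 kPa and 9.34 and 7.97 at 60 kPa (deeper library first; 0.90, adjusted p = 0.06, and 0.59 with 0.14 after the GC correction). SLC25A46, a protein of the outer mitochondrial membrane, was at 7.12 and 8.25 against 14.5 and 13.4 FPKM (0.79, adjusted p = 0.06, and 0.40 with 0.124 after the GC correction). HSPA14, a ribosome-associated HSP70 protein, was at 7.77 and 9.92 against 15.4 and 15.5 FPKM (0.75, adjusted p = 0.06, and 0.51 with 0.038 after the GC correction). All 3 were near their 6 kPa values on the softer gels, at 3.90 to 5.99, 6.57 to 8.07 and 7.62 to 8.19 FPKM. At 25 mM glucose MPHOSPH9 was at 6.82 and 7.66 FPKM, SLC25A46 at 12.5 and 13.7, which overlapped its 60 kPa values, and HSPA14 at 13.3 and 13.2.

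Downward, 14 of 16 such genes lay below all 6 softer libraries. PSCA, a GPI-anchored surface antigen, was at 78.3 to 93.3 FPKM on the softer gels, 69.8 and 49.1 at 6 kPa and 32.3 and 31.7 at 60 kPa (-0.85, adjusted p = 0.06, and 0.018 with the GC correction). YPEL3, a gene linked to growth arrest, was at 9.28 and 5.75 against 3.45 and 2.19 FPKM (-1.14, adjusted p = 0.0657). LENG8 was at 10.6 and 10.8 against 6.12 and 6.49 FPKM (-0.68, adjusted p = 0.0507, and 0.18 with the GC correction). Cholesterol synthesis genes (23 measured) had 10 (43.5%) above both 6 kPa libraries and 1 (4.3%) below, none called, with a median of 0.19 (0.10 with the GC correction). Interferon response genes (14) had 1 (7.1%) above and 6 (42.9%) below, none called, with a median of -0.25 (-0.31). Among all genes tested, 30.2% lay above and 15.9% below.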
